A study of Rattus norvegicus with 20 samples.

Results

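Oxidative phosphorylation begins with complexes I to IV of the inner mitochondrial membrane, which pass electrons from NADH and succinate to oxygen. Complexes I, III and IV pump protons, and the returning protons drive complex V, the ATP synthase. The nuclear genes for the subunits of complexes I to V were followed in rat globular bushy cells at 3 postnatal ages. Members were the genes whose symbol starts with Ndufa, Ndufb, Ndufc, Ndufs, Ndufv, Uqcr, Atp5 or Cox4 to Cox7, or is Sdha, Sdhb, Sdhc, Sdhd, Cyc1 or Cycs, measured by a probe set that names exactly 1 gene. The complex IV symbols Cox4i1, Cox4i2, Cox6a1, Cox6a2, Cox7a1 and Cox7a2 and the assembly factors starting with Ndufaf were left out by the rule. This gave 74 genes of the 14218 named by the array: 34 of complex I, 4 of complex II, 8 of complex III, 12 of complex IV and 16 of complex V. All 74 passed the filter on low signal. Cycs, Atp5mc1, Atp5mc2 and the subunits encoded by mitochondrial DNA were not analysed here.

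The chain begins at complex I, where a flavin takes electrons from NADH and a series of iron-sulfur clusters hands them to ubiquinone. Complex II feeds in electrons from succinate, complex III passes them to cytochrome c, and complex IV reduces oxygen. Most accessory subunits carry no electrons and serve the assembly or stability of their complex. Globular bushy cells fire at high sustained rates and send a thick axon to a giant terminal, the calyx of Held, and the ion pumps that restore their gradients run on ATP.

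The cells came from the ventral cochlear nucleus of Sprague Dawley rats, with no genetic change or drug named in the labels. Every animal, at every age, had received cholera toxin B as a fluorescent retrograde tracer in the medial nucleus of the trapezoid body of the other side, and was killed 24 hours later. From each animal 200 labelled cells were cut out of frozen sections by laser microdissection, and their RNA was amplified over 2 rounds and hybridised to an array. The groups were 6 animals at postnatal day 3 (P3), soon after the calyx has formed, 9 at day 8 (P8), a juvenile stage, and 5 at day 21 (P21), when the synapse is mature. No uninjected animals serve as a comparison, and cells cut from a section can bring in fragments of their neighbours. Levels are given as log2(intensity + 1) of the deposited values, and a difference is that of 2 group means, with its standard error (SE). The question was which of the subunit genes change between synapse formation and the mature synapse.

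P8 replicates 5 to 9 are described apart, since their control probe sets and median intensity differed, although all arrays had been scaled to the same trimmed mean. The median intensity of an array was 58.9 to 67.5 there and 23.8 to 32.5 elsewhere. Hybridisation controls had a mean of 12.81 ± 0.43 (SD, n = 5) there and of 8.28 ± 0.36 (SD, n = 4) in the other P8 arrays. P8 below means replicates 1 to 4 unless stated. Of 21 listed markers of bushy cells and similar auditory neurons 17 were measured, and each was above log2 4 on at least 1 array. Their mean level was 7.92 ± 0.14 (SD, n = 6) at P3, 9.10 ± 0.54 (SD, n = 4) at P8 and 10.17 ± 0.18 (SD, n = 5) at P21.

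From P3 to P21 the subunit genes moved mostly upwards. In the test across all genes (limma, Benjamini-Hochberg over 11826 genes, called below an adjusted p of 0.05) 40 of the 74 rose and 1 fell, and the other 33 did not pass. Among all genes tested 22.5% were called higher and 20.4% lower in the same comparison. The median difference was 0.43 over the subunit genes and 0.04 over all genes, and 69 of the 74 differences were above 0. All P21 arrays lay above all P3 arrays for 25 subunit genes, and below them for 0; the shares over all genes were 16.9% and 14.4%. Among genes averaging above log2 8, 29.6% of all genes tested were called higher, against 34 of 64 subunit genes.

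The count changed when P8 replicates 5 to 9 entered the fit, which also raised the number of genes tested to 12694; the cause was not tested. With all 20 arrays and P8 as a single group 9 of the 74 were called higher, against 7.36% of all genes. With P8 replicates 5 to 9 as a group of their own 25 were called higher, against 14.4% of all genes. The P21 minus P3 differences themselves use the same arrays in all 3 fits. An array value is an average over the cells of an animal, so more RNA per cell and a larger share of cells rich in an RNA cannot be told apart.

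**Figure D1:**
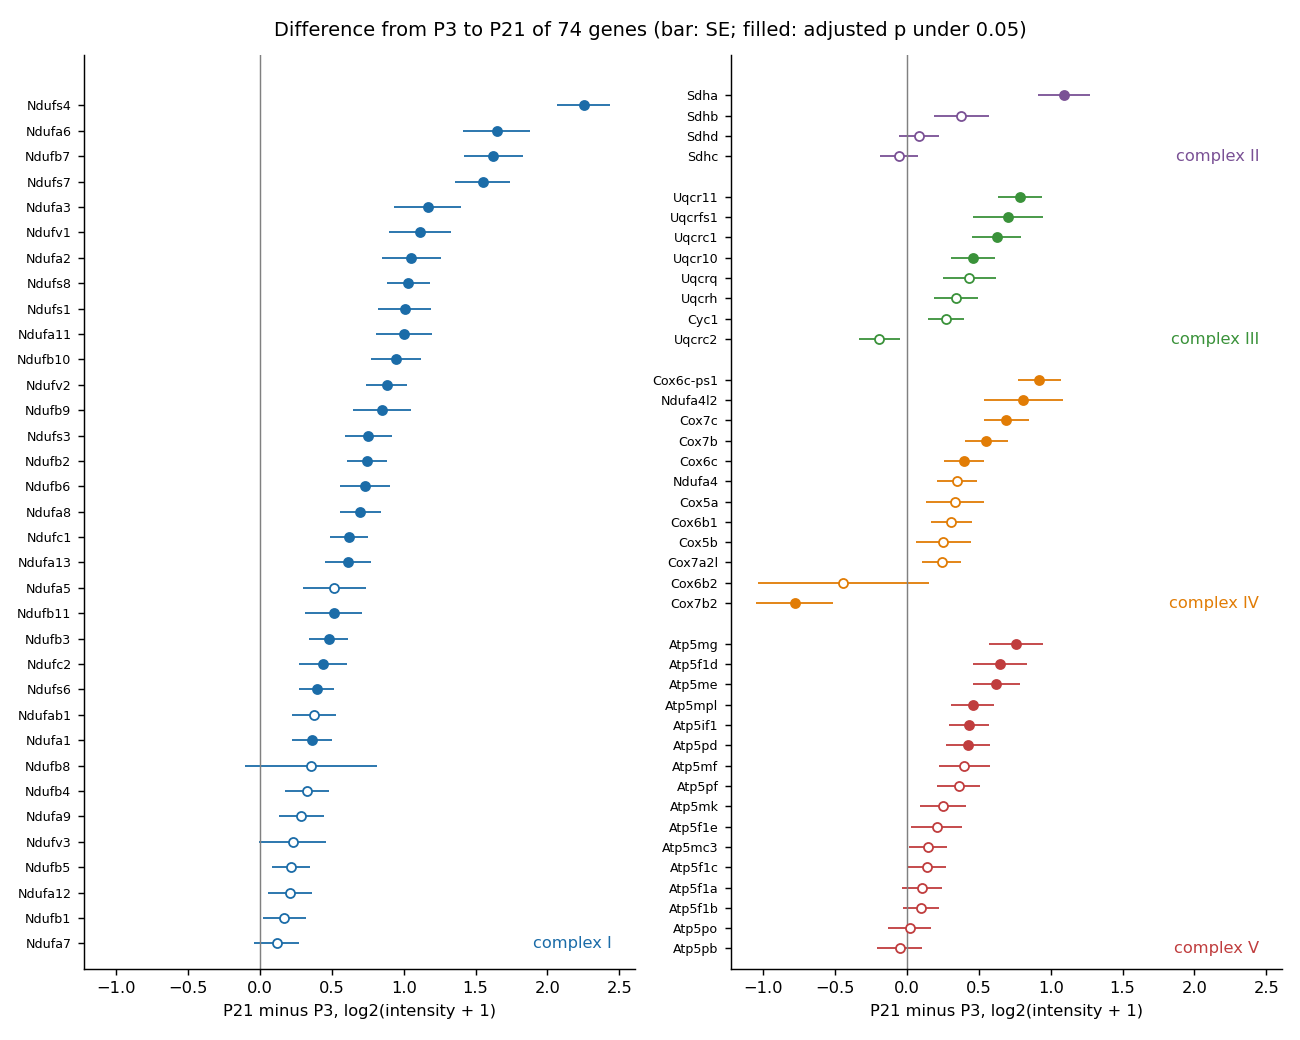
Difference of group means, P21 minus P3, in log2(intensity + 1) for each of the 74 genes, grouped by complex, with SE bars; filled points passed the test at an adjusted p below 0.05. The complex I genes all lie above 0, from 0.12 to 2.25, and the complex V genes lie between -0.05 and 0.76.

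The levels of the genes of a complex were also averaged on each array, as the mean departure from the P3 mean. For complex I this mean was 0.36 ± 0.22 (SD, n = 4) at P8 and 0.74 ± 0.11 (SD, n = 5) at P21. The lowest P21 array of complex I was at 0.57 and the highest P3 array at 0.38, so these ages did not overlap. For complex II the mean was 0.37 ± 0.12 at P21, for complex III 0.43 ± 0.20, for complex IV 0.30 ± 0.14 and for complex V 0.31 ± 0.16 (SD, n = 5 each). In complexes II, III and V the lowest P21 array fell within the P3 range, whereas in complex IV it lay at 0.22 and the highest P3 array at 0.11. P21 replicate 5 was the lowest P21 array in complex I, at 0.57, in complex III, at 0.10, and in complex V, at 0.05. The members were chosen with results in view, so no test was made of these means.

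**Figure D2:**
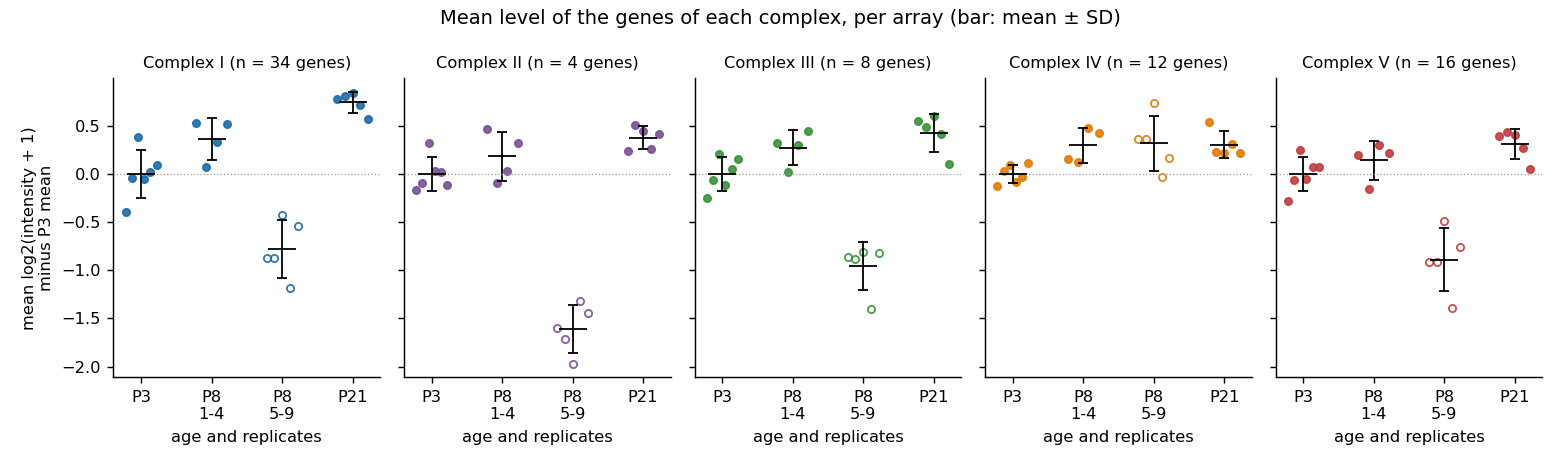
Mean over the genes of each complex of log2(intensity + 1) minus the P3 mean, 1 point per array, by age, with P8 replicates 5 to 9 as open points; bars are mean ± SD. Complex I rises from P3 to a mean of 0.74 at P21, and P8 replicates 5 to 9 lie below the other arrays in every complex but complex IV.

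Promoters are shown because many of these genes moved together, and because sites for NRF1, for ETS factors such as GABP and for the estrogen-related receptors (ERR) are known from promoters of respiratory chain genes. The windows hold the 250 bases before the gene start in the RefSeq annotation of GRCr8, and 67 of the 74 members matched. The letters searched on both strands were GCGC, then any 2 bases, then GCGC for NRF1, CCGGAAG for ETS and AAGGTCA for ERR. Matches may overlap one another. NRF1 letters stood in 11 member promoters (16.4%) and in 4.80% of all 33469 promoters of that length. ETS letters stood in 18 (26.9%) against 7.27% of all, and ERR letters in 6 (8.96%) against 3.99% of all. Of 34 promoters of genes called higher from P3 to P21, 7 held NRF1 letters, 9 ETS letters and 2 ERR letters. Of the other 33, 4 held NRF1 letters, 9 ETS letters and 4 ERR letters. In 36 member promoters none of the 3 motifs was found. A match describes letters in a window and not a bound site.

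The 6 promoters below are 3 of complex I genes and the Sdha promoter, all of genes called higher, and 2 of complex V genes that were not called. Capitals mark the matches. Ndufs4 (chr2:47794915-47795164 on the minus strand), the gene with the largest rise, has none of the letters, and Ndufb7 (chr19:41477292-41477541 on the minus strand) has an ETS match 16 to 10 bases before its start. Ndufa11 (chr9:1637364-1637613 on the plus strand) has 2 overlapping NRF1 matches that begin 97 and 91 bases before the start, and Sdha (chr1:30764303-30764552 on the plus strand) has 2 that begin 89 and 46 bases before it. Atp5mc3 (chr3:79220665-79220914 on the minus strand) has the ERR letters on the opposite strand, 57 to 51 bases before the start. Atp5po (chr11:44657484-44657733 on the minus strand) has an NRF1 match 59 to 50 bases before it.
Ndufs4: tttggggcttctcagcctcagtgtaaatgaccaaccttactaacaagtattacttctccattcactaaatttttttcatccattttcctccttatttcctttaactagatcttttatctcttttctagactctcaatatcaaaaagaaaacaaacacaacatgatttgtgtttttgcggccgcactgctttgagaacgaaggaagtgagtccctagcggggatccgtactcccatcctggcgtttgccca
Ndufb7: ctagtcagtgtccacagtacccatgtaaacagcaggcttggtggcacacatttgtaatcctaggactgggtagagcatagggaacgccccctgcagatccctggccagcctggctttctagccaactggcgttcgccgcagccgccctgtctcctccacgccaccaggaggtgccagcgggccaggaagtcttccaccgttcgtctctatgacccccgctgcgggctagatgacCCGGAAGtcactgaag
Ndufa11: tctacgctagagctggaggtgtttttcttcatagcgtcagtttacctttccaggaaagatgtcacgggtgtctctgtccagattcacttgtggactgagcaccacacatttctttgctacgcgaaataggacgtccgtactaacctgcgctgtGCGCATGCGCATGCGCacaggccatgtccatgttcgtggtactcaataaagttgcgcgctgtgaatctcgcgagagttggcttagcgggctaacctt
Sdha: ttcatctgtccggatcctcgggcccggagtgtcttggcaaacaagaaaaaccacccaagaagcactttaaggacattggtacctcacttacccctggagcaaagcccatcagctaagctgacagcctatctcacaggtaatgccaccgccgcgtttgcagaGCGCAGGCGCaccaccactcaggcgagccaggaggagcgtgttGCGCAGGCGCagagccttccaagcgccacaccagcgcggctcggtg
Atp5mc3: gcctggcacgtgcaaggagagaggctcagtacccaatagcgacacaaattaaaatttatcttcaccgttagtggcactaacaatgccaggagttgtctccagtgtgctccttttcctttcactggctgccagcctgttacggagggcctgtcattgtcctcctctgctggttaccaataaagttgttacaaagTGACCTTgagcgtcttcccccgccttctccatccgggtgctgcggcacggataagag
Atp5po: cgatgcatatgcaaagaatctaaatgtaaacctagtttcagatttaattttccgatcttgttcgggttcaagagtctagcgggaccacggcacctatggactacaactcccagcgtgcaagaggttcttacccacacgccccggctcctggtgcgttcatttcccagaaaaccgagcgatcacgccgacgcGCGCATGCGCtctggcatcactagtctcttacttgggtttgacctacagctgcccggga

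In complex I 24 of 34 genes rose from P3 to P21 and 0 fell, with a median difference of 0.66. The 6 measured core subunits, most of which (not Ndufs3) carry the flavin or iron-sulfur clusters, all rose, by a median of 1.02 or 2.03-fold. Of the 28 accessory subunits 18 rose, with a median difference of 0.51. Core and accessory genes were not matched for level. By level at P8, complex I genes had a median difference of 0.42 above log2 10, 0.62 from log2 9 to 10 and 0.98 from log2 6 to 9. By symbol, 7 of 12 Ndufa genes, 7 of 11 Ndufb genes, both Ndufc genes, all 6 Ndufs genes and 2 of 3 Ndufv genes rose. The 10 genes that did not pass had differences above 0 as well, and the lowest adjusted p among them was 0.0626.

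The accessory subunit Ndufs4, which stabilises the NADH-oxidising end of complex I, had the largest difference of all members. Its level was 7.72 to 8.47 at P3 (median 8.11), 9.48, 9.09, 9.41 and 10.005 at P8, and 10.40, 10.34, 10.36, 10.52 and 10.13 at P21. No age overlapped another. Ndufs4 rose by 1.40 ± 0.20 (SE) in the earlier interval, by 0.85 ± 0.21 in the later and by 2.25 ± 0.19 over both, or 4.77-fold (limma adjusted p 0.000432, 0.00906 and 3.28e-07 in that order). It stayed called in each of the 3 comparisons when any of the 15 arrays was left out, and the later interval lost its call (limma adjusted p 0.0548) with all 20 arrays and P8 replicates 5 to 9 as a group of their own.

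Ndufs7 holds the last iron-sulfur cluster before ubiquinone. Its level ran from 7.34 to 8.38 at P3 (median 8.07), was 9.00, 8.50, 8.50 and 8.98 at P8, and 9.87, 9.54, 9.70, 9.38 and 9.41 at P21. The 3 ages did not overlap. It rose by 0.71 ± 0.20 from P3 to P8 (limma adjusted p 0.0241), a call lost without P8 replicate 1 (0.0662) or 4, and by 0.83 ± 0.21 from P8 to P21 (adjusted p 0.0112). Over both intervals the rise was 1.55 ± 0.19, or 2.93-fold (adjusted p 1.24e-05).

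Ndufs8, another iron-sulfur subunit next to the ubiquinone site, had most of its difference in the earlier interval. It measured 7.08 to 7.86 at P3 (median 7.50), 8.57, 8.42, 8.13 and 8.60 at P8, and 8.58, 8.51, 8.49, 8.53 and 8.71 at P21. The P8 and P21 arrays overlapped and both lay above all P3 arrays. Ndufs8 rose by 0.90 ± 0.16 from P3 to P8 (limma adjusted p 0.00219), differed by 0.14 ± 0.17 between P8 and P21 (adjusted p 0.614) and rose by 1.03 ± 0.15 from P3 to P21 (adjusted p 7.17e-05). The test of the later minus the earlier interval gave an adjusted p of 0.136, so the difference between the intervals did not pass.

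Ndufs1 and Ndufs3, subunits of the peripheral arm, passed in the later interval and not in the earlier. Ndufs1, the largest iron-sulfur subunit, was at 8.79 to 9.29 at P3 (median 9.05), 9.54, 9.57, 8.70 and 9.81 at P8, and 9.69, 10.13, 10.21, 10.18 and 10.06 at P21. P8 replicate 3 lay below the P3 range, and all P21 arrays lay above all P3 arrays. The differences of Ndufs1 were 0.36 ± 0.20 (limma adjusted p 0.214), 0.64 ± 0.20 (0.0359) and 1.01 ± 0.18 (0.000444) for P8 minus P3, P21 minus P8 and P21 minus P3. Those of Ndufs3, from a P3 mean of 7.51, were 0.16 ± 0.18 (0.56), 0.59 ± 0.18 (0.0326) and 0.75 ± 0.16 (0.00182). The P8 to P21 calls were lost without any of 5 arrays for Ndufs1 (P8 replicate 3 and P21 replicates 2 to 5, adjusted p up to 0.097) and any of 5 for Ndufs3 (P8 replicates 1 and 2 and P21 replicates 2 to 4, up to 0.0903).

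Ndufv1 binds NADH and the flavin, and Ndufv2 sits beside it with a further iron-sulfur cluster. Ndufv1 ranged from 7.35 to 8.61 at P3 (median 8.01), was 8.85, 8.22, 8.14 and 8.85 at P8, and 9.06, 8.95, 9.24, 9.23 and 9.13 at P21. Every P21 array lay above every earlier one, while P3 and P8 overlapped. Ndufv1 rose by 1.11 ± 0.21 from P3 to P21, or 2.16-fold (limma adjusted p 0.000674), and neither interval alone passed. Ndufv2 rose by 0.88 ± 0.14 from P3 to P21 (adjusted p 0.000164) and by 0.52 ± 0.15 from P3 to P8 (adjusted p 0.0302). The latter call was lost without P3 replicate 1, 2, 4 or 5 or P8 replicate 1 or 4, with an adjusted p of up to 0.0813.

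Among the other accessory subunits Ndufb7, which faces the intermembrane space, was at 7.62 to 8.73 at P3 (median 8.21), 9.53, 8.55, 9.06 and 9.24 at P8, and 9.62, 9.99, 10.06, 9.73 and 9.62 at P21. It rose by 1.62 ± 0.20, or 3.08-fold, from P3 to P21 (limma adjusted p 1.6e-05), by 0.92 ± 0.22 from P3 to P8 (0.0104) and by 0.71 ± 0.23 from P8 to P21 (0.0375). The last call was lost without P8 replicate 2 or 3 or P21 replicate 2, 3 or 4 (adjusted p up to 0.121). The P21 arrays lay above all others.

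Ndufa6, an accessory subunit of the LYR family, was at 8.34 to 9.49 at P3 (median 8.59), 9.70, 8.78, 9.76 and 9.09 at P8, and 9.89, 10.73, 10.50, 10.28 and 10.25 at P21. It rose by 1.65 ± 0.24 from P3 to P21, or 3.13-fold (limma adjusted p 5.56e-05), and by 1.00 ± 0.26 from P8 to P21 (0.0145; 0.0506 without P8 replicate 2). Ndufa11, a membrane subunit, rose by 0.87 ± 0.21 from P3 to P8 (0.0105), to levels of 7.51 to 7.87, and differed by 0.13 ± 0.21 from P8 to P21 (0.714).

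Ndufa7 and Ndufa9 are accessory subunits near the ubiquinone site, and each has a further, dimmer probe set. The brighter probe set of Ndufa7 gave 9.39 at P3, 9.39 at P8 and 9.50 at P21, a difference of 0.12 ± 0.16 from P3 to P21 (limma adjusted p 0.586). The other probe set gave 6.71, 8.24 and 8.00, with a rise of 1.53 ± 0.31 from P3 to P8 and of 1.29 ± 0.29 from P3 to P21 (limma over every probe set, adjusted p 0.00517 and 0.00286). The Ndufa7 probe sets therefore disagree, and the mean of them gave 0.76 from P3 to P8. For Ndufa9 the brighter probe set differed by 0.29 ± 0.16 and the dimmer by 0.64 ± 0.29 from P3 to P21, neither called.

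**Figure D3:**
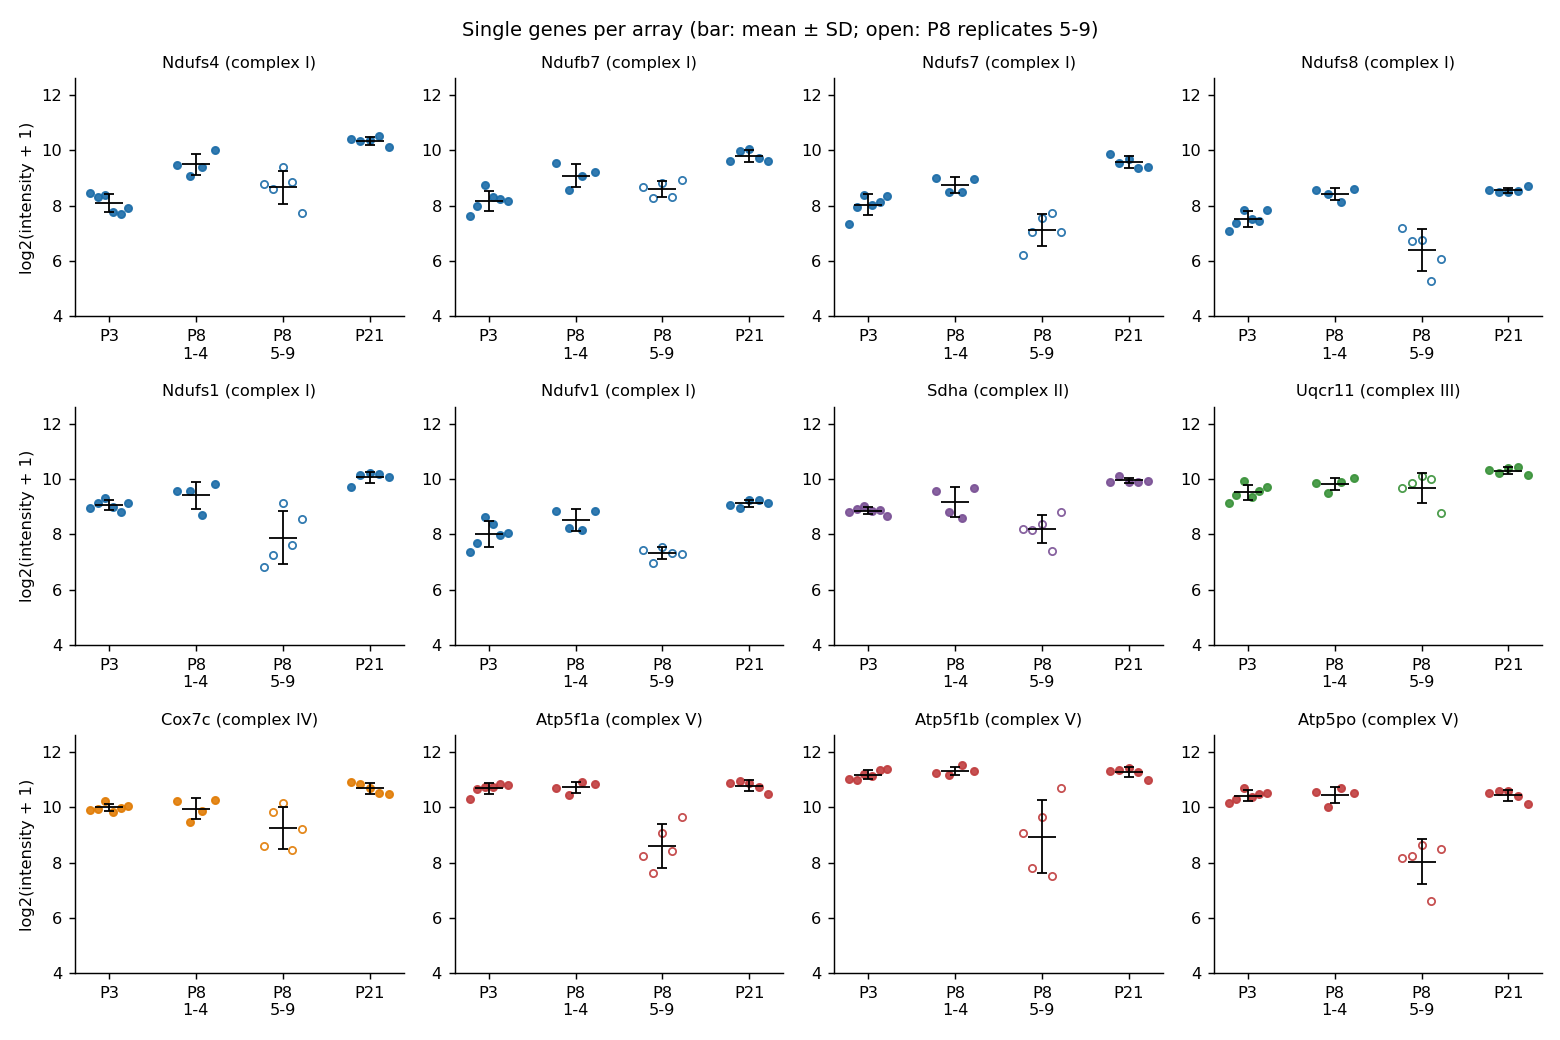
log2(intensity + 1) of 12 genes, 1 point per array, by age, with P8 replicates 5 to 9 as open points and bars for mean ± SD. Ndufs4 climbs from about 8.10 at P3 to 10.35 at P21, while Atp5f1a, Atp5f1b and Atp5po differ by 0.02 to 0.10 between these ages.

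In complex II 1 of 4 genes rose. Sdha, the flavoprotein that oxidises succinate, was at 8.65 to 9.02 at P3 (median 8.86), 9.56, 8.81, 8.57 and 9.68 at P8, and 9.90, 10.10, 9.90, 9.89 and 9.92 at P21. P8 replicates 2 and 3 lay within or below the P3 range and replicates 1 and 4 above them, and all P21 arrays were higher than any other. Sdha rose by 0.79 ± 0.20 from P8 to P21 (limma adjusted p 0.0124) and by 1.09 ± 0.18 from P3 to P21, or 2.13-fold (adjusted p 0.000202).

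The other complex II genes did not pass in any comparison. The iron-sulfur subunit Sdhb had means of 9.21 at P3, 9.23 at P8 and 9.59 at P21, a difference of 0.38 ± 0.19 (limma adjusted p 0.129). The membrane anchors Sdhc and Sdhd differed by -0.06 ± 0.13 and 0.08 ± 0.14 from P3 to P21. The groups overlapped for all 3 genes. Sdhd has a further, dimmer probe set, with means of 8.14 at P3, 8.50 at P8 and 8.59 at P21. It differed by 0.45 ± 0.19 from P3 to P21 (limma over every probe set, adjusted p 0.0677). From P8 to P21 the Sdhd probe sets had opposite signs, -0.13 for the brighter and 0.09 for the dimmer, and neither was called.

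In complex III 4 of 8 genes rose from P3 to P21, with a median difference of 0.45 over the 8. Uqcr11, a small accessory subunit, was at 9.11 to 9.92 at P3 (median 9.48), 9.83, 9.49, 9.89 and 10.03 at P8, and 10.34, 10.20, 10.40, 10.42 and 10.13 at P21. Its P21 arrays lay above all earlier ones, and it rose by 0.79 ± 0.15 from P3 to P21 (limma adjusted p 0.000748). The core protein Uqcrc1 rose by 0.62 ± 0.17 (0.00806).

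The Rieske iron-sulfur protein Uqcrfs1, an electron carrier of complex III, rose by 0.70 ± 0.24 from P3 to P21 (limma adjusted p 0.0287). It was at 9.58 to 10.26 at P3, 10.45, 9.69, 9.51 and 10.69 at P8, and 9.84, 10.90, 10.64, 10.93 and 10.58 at P21, so that P21 replicate 1 lay within the P3 range. The call was lost without P3 replicate 1, 2 or 6 or P21 replicate 2, 3 or 4, with an adjusted p of up to 0.0719. The small subunit Uqcr10 rose by 0.46 ± 0.15 (0.0233), a call lost without P3 replicate 4 or P21 replicate 1, 2 or 3 (up to 0.0621).

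The cytochrome subunit Cyc1, which hands electrons to cytochrome c, had means of 9.83, 10.05 and 10.11 and did not pass (0.27 ± 0.13 from P3 to P21, limma adjusted p 0.0955). The core protein Uqcrc2 was the only complex III gene with a difference below 0, at -0.19 ± 0.14 (0.299). Its dimmer probe set differed by 0.64 ± 0.27 (limma over every probe set, adjusted p 0.0757), so the 2 probe sets have opposite signs and neither was called.

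In complex IV 5 of 12 genes rose and 1 fell from P3 to P21, with a median difference of 0.34. Cox7c, a small membrane subunit, was at 9.85 to 10.23 at P3 (median 9.96), 10.25, 9.46, 9.86 and 10.25 at P8, and 10.92, 10.85, 10.69, 10.51 and 10.46 at P21. The P3 and P8 arrays overlapped and the P21 arrays lay above both. Cox7c rose by 0.73 ± 0.17 from P8 to P21 (limma adjusted p 0.00831) and by 0.69 ± 0.16 from P3 to P21 (0.00249), and differed by -0.04 ± 0.17 from P3 to P8 (0.89).

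Cox7b, another small membrane subunit, rose by 0.55 ± 0.15 from P3 to P21 (limma adjusted p 0.00806). The annotated pseudogene Cox6c-ps1 rose by 0.92 ± 0.15 (0.000159), at levels of 5.63 to 6.93, and its probe set could share signal with Cox6c, which lies far above it. The subunits Cox5a and Cox5b, which surround the catalytic core, did not pass, with differences of 0.33 ± 0.20 (0.205) and 0.25 ± 0.19 (0.304). Ndufa4, a subunit now assigned to complex IV, differed by 0.35 ± 0.14 (0.0602), and Cox7a2l, which joins complexes III and IV into supercomplexes, by 0.24 ± 0.14 (0.174).

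The dim genes of complex IV are isoforms at or near the level of the filter, and their calls were unstable. Ndufa4l2, known as a hypoxia-induced relative of Ndufa4, measured 2.93 to 4.23 at P3 and 4.56, 3.55, 4.44, 4.42 and 4.77 at P21. Its difference was 0.81 ± 0.28 (limma adjusted p 0.0284), a call lost without P3 replicate 4 or 5 or any P21 replicate but the second (up to 0.071). Cox7b2 measured 4.43 to 5.08 at P3 and 4.22, 3.70, 3.66, 4.03 and 4.57 at P21. Its difference of -0.78 ± 0.27 (0.0289) was lost without P3 replicate 3 or 6 or P21 replicate 2 or 3 (up to 0.074).

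Cox6b2, known from testis, was at 2.96, 6.00, 7.10 and 5.41 at P8 and at 1.89 to 4.43 at P21. It fell by 1.95 on the log2 scale from P8 to P21 (limma adjusted p 0.0496), a call that was lost in 13 of the 15 fits that leave out an array, and stayed without P8 replicate 1 or P21 replicate 5.

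In complex V 6 of 16 genes rose from P3 to P21 and 0 fell, with a median difference of 0.31. Among the 5 genes of the F1 head and its stalk 1 rose. The catalytic subunit Atp5f1b was at 10.99 to 11.37 at P3 (median 11.16), 11.22, 11.19, 11.52 and 11.31 at P8, and 11.33, 11.34, 11.44, 11.28 and 10.99 at P21. The 3 ages overlapped throughout, and the P21 minus P3 difference was 0.10 ± 0.13 (limma adjusted p 0.575). Its partner Atp5f1a, at 10.31 to 10.85 at P3 and 10.90, 10.93, 10.89, 10.72 and 10.47 at P21, differed by 0.10 ± 0.14 (0.586). The rotating shaft Atp5f1c differed by 0.14 ± 0.13 (0.418).

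Atp5f1d, a small subunit at the foot of the shaft, was the F1 gene that rose. It ranged from 8.18 to 9.35 at P3 and was 9.54, 9.63, 9.64, 9.52 and 9.36 at P21, so that the ages just failed to overlap, and its difference was 0.65 ± 0.19 (limma adjusted p 0.0113). The c-ring gene Atp5mc3, part of the proton-driven rotor, was at 11.23 to 11.43 at P3 and 11.002 to 11.61 at P21 (0.14 ± 0.13, 0.41).

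Of the 4 genes of the peripheral stalk, which holds the head still, 1 rose. Atp5po, at its top, had means of 10.42, 10.45 and 10.44 and a P21 minus P3 difference of 0.02 ± 0.15 (limma adjusted p 0.93). Its dimmer probe set, at 5.29, 5.71 and 6.03, rose by 0.75 ± 0.25 (limma over every probe set, adjusted p 0.025), so the probe sets disagree.

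Of the 5 other membrane subunits 3 rose. Atp5mg was at 7.00 to 7.98 at P3 (median 7.36), 8.10, 7.48, 8.43 and 8.10 at P8, and 8.21, 8.36, 8.27, 7.91 and 8.07 at P21. P8 replicate 2 and P21 replicate 4 lay within the P3 range. Atp5mg rose by 0.76 ± 0.19 from P3 to P21 (limma adjusted p 0.0048). Its rise of 0.62 ± 0.20 from P3 to P8 (0.0469) was lost in 13 of 15 fits that leave out an array and stayed without P3 replicate 3 or P8 replicate 2.

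Atp5me rose by 0.62 ± 0.16 from P3 to P21 (limma adjusted p 0.00629). Its dimmer probe set, with means of 4.30, 4.65 and 4.51, differed by 0.21 ± 0.27 (limma over every probe set, adjusted p 0.576). Atp5mf rose by 0.58 ± 0.20 from P8 to P21 (0.0487), a call lost in 13 of 15 such fits, and differed by 0.40 ± 0.18 from P3 to P21 (0.0808). Atp5if1, which blocks ATP hydrolysis by the synthase, was at 8.83 to 9.51 at P3 and 9.60, 9.56, 9.74, 9.59 and 9.55 at P21, with no overlap. Its rise was 0.43 ± 0.14 (0.0218, and 0.0532 without P21 replicate 3). The call was also lost in the fits of 20 arrays, with array medians subtracted and with the mean of probe sets. The dimmer probe sets of Atp5if1 differed by 0.20 ± 0.19 and 0.29 ± 0.16 (limma over every probe set, adjusted p 0.438 and 0.179).

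The earlier and later intervals held similar numbers of calls. From P3 to P8 10 of the 74 rose, 8 of them in complex I, with 9.28% of all genes called higher. By limma 0 fell, with 8.00% of all genes called lower. Of the members 0 fell at an unadjusted p under 0.05 as well, with 1843 of all 11826 genes lower. From P8 to P21 11 rose, again 8 in complex I, and 1 fell (Cox6b2), with 9.64% and 9.93% of all genes. The members called higher were 13.5% and 14.9% of the 74, not far from the shares of all genes. The median difference was 0.22 in both. The count of 10 became 6 without P8 replicate 4, and the count of 11 became 5 without P8 replicate 2 or P21 replicate 2, 3 or 4 and 6 without P8 replicate 3.

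Ndufs4, Ndufs7 and Ndufb7 were called in both intervals. The test of the later minus the earlier interval called 0 of the 74 genes by limma (lowest adjusted p 0.0893), with 5.30% of all genes called. At an unadjusted p under 0.05 it gave 2 subunit genes higher and 2 lower, against 1343 higher and 1389 lower of all 11826 genes. P8 arrays enter both intervals with opposite sign, so the intervals are not independent.

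The difference from P3 to P21 was set beside the level of each gene, taken from the P8 arrays, which the P21 minus P3 difference does not use. Of 33 members above log2 10, 12 rose, where 25.4% of all 535 such genes were called higher. Of 24 members from log2 9 to 10, 17 rose, against 32.6% of 818 genes, and of 13 from log2 6 to 9, 10 rose, against 25.3% of 5819. Of the 4 members up to log2 6, 1 rose and 1 fell. Over the 70 brighter members the correlation of level and difference was -0.45 (Pearson) and -0.56 (Spearman), and over all 74 it was -0.08 and -0.43. The genes share arrays and probe chemistry, so these are descriptions.

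Above log2 10, 7 of 10 complex I genes rose, with a median difference of 0.42, and 0 of 10 complex V genes, with a median of 0.14, by limma (2 of these 10 at an unadjusted p under 0.05). From log2 9 to 10, 9 of 13 complex I genes rose, with a median difference of 0.62, and 5 of 5 complex V genes, with a median of 0.46. From log2 6 to 9, 8 of 10 complex I genes and the 1 complex V gene rose. The brightest value of any member on the 15 arrays was 11.70, and the brightest probe set of each array lay between 11.44 and 12.36. Whether signal near that end is compressed was not tested.

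**Figure D4:**
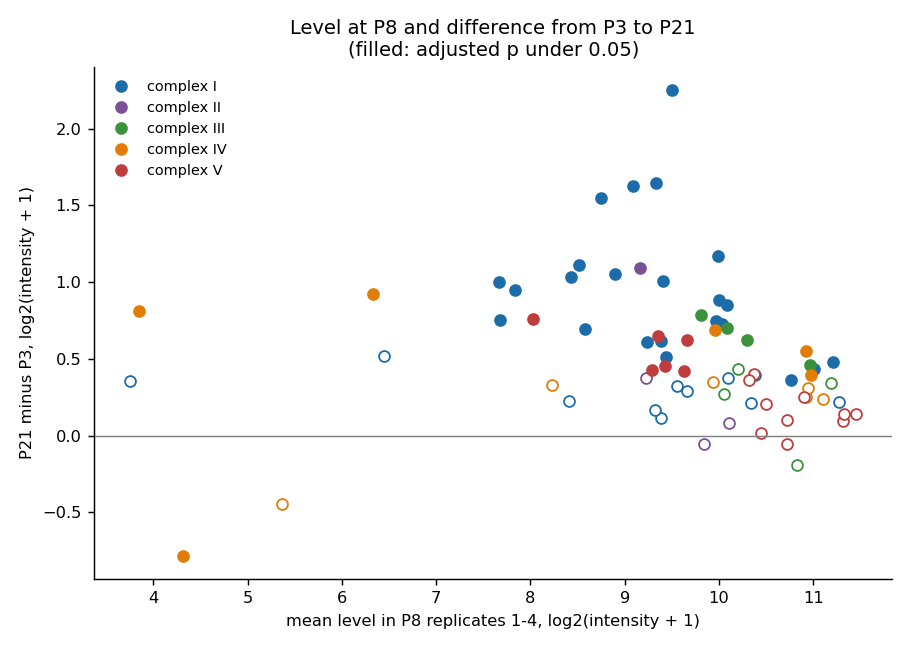
P21 minus P3 difference of each of the 74 genes against its mean level in P8 replicates 1 to 4, both in log2(intensity + 1), coloured by complex; filled points passed the test. The largest differences, up to 2.25, belong to genes between log2 8 and 10, and the genes above log2 11 all differ by less than 0.50.

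Other measures moved with age on the same arrays. All 9 measured oligodendrocyte markers of 10 listed rose from P3 to P8 and from P3 to P21. Their mean level was 5.27 ± 0.51 (SD, n = 6) at P3, 8.20 ± 0.61 (SD, n = 4) at P8 and 9.20 ± 0.33 (SD, n = 5) at P21, and the log2 of their summed intensity ran from 9.63 to 11.07, from 12.47 to 13.10 and from 12.81 to 13.38. No marker of this list was under log2 4 on every array. Of 7 astrocyte markers 2 rose and 2 fell from P3 to P21, and of 6 tested microglial markers 0 were called by limma (1 at an unadjusted p under 0.05). All 3 tested markers of oligodendrocyte precursors and both tested markers of inhibitory neurons fell. Of 4 tested cerebellar granule cell markers 1 rose, and the log2 of that list's summed intensity ran from 8.12 to 8.96 at P3 and from 7.59 to 11.03 at P21. Of 4 tested endothelial markers 1 rose, and of 3 tested each for choroid plexus and muscle 0 were called by limma (0 at an unadjusted p under 0.05). The difference between the 3′ and 5′ probe sets of GAPDH, which grows as RNA is shortened, was 2.91 ± 0.27 at P3, 3.27 ± 0.42 at P8 and 3.99 ± 0.66 at P21 (SD). The part of either in the differences of the subunit genes was not tested.

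Further genes of mitochondrial function were taken from lists, of which the counts below are for P21 against P3 beside the 22.5% and 20.4% of all genes. Of 40 assembly factors, which build the complexes, 15 rose and 1 fell. Atpaf1, a chaperone of the ATP synthase head, rose by 1.80 ± 0.13 (limma adjusted p 1e-07), and Cox17, which delivers copper to complex IV, by 2.09 ± 0.18 (3.92e-07). Cox16 fell by 0.82 on the log2 scale (0.0222). Of 72 mitochondrial ribosomal protein genes 30 rose and 2 fell, with the lowest limma adjusted p for Mrps23 (7.32e-05, a rise of 1.18 ± 0.17) and Mrpl17 (0.000123, a rise of 0.86 ± 0.13). Of 22 genes of protein import 13 rose and 1 fell: Timm10 rose by 0.97 ± 0.13 and Timm9, its partner in the chaperone of the intermembrane space, fell by 0.73.

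Genes that carry ATP, phosphate and substrates out of and into mitochondria gave 9 rises and 0 falls of 16. Ckmt1, the mitochondrial creatine kinase, had means of 7.99, 9.34 and 10.54 and rose by 2.55 ± 0.16 (limma adjusted p 3e-08). Slc25a22, a glutamate carrier, rose by 2.47 ± 0.19 (1.44e-07). Of 7 antioxidant genes 5 rose, with Prdx5 at 1.45 ± 0.16 and Glrx2 at 1.24 ± 0.14. Of 14 genes that feed electrons to ubiquinone or make it 4 rose and 1 fell: Coq8a rose by 1.47 ± 0.19, and Gpd2, the mitochondrial glycerol phosphate dehydrogenase, fell by 1.02. Of 9 genes of inner membrane organisation and fusion 3 rose and 1 fell, with Mfn1 at 0.71 ± 0.17, Mfn2 at 0.64 ± 0.15 and Phb2 at -0.80 ± 0.22.

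Of 24 regulators of mitochondrial gene expression 7 rose and 3 fell. Esrra, the estrogen-related receptor alpha, had means of 4.94 at P3, 5.49 at P8 and 7.65 at P21. It rose by 2.17 ± 0.31 from P8 to P21 (limma adjusted p 0.000234) and by 2.71 ± 0.28, or 6.56-fold, from P3 to P21 (2.22e-06). Ppargc1b, a coactivator of this receptor, rose by 1.25 ± 0.22 (0.000289). Both listed subunits of the ETS factor GABP fell: Gabpb1 by 1.20 (4.04e-05) and Gabpa, which binds DNA, by 0.80 (0.0133). The zinc finger factor Yy1 fell by 1.03 (0.00223).

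Of the regulators best known for this gene family, Ppargc1a differed by 0.13 ± 0.15 (limma adjusted p 0.5), Nrf1 by -0.49 ± 0.26 (0.151) and Tfam, which packages mitochondrial DNA, by 0.20 ± 0.12 (0.213), and none of the 3 passed. These 3 were singled out after their values were seen.

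**Figure D5:**
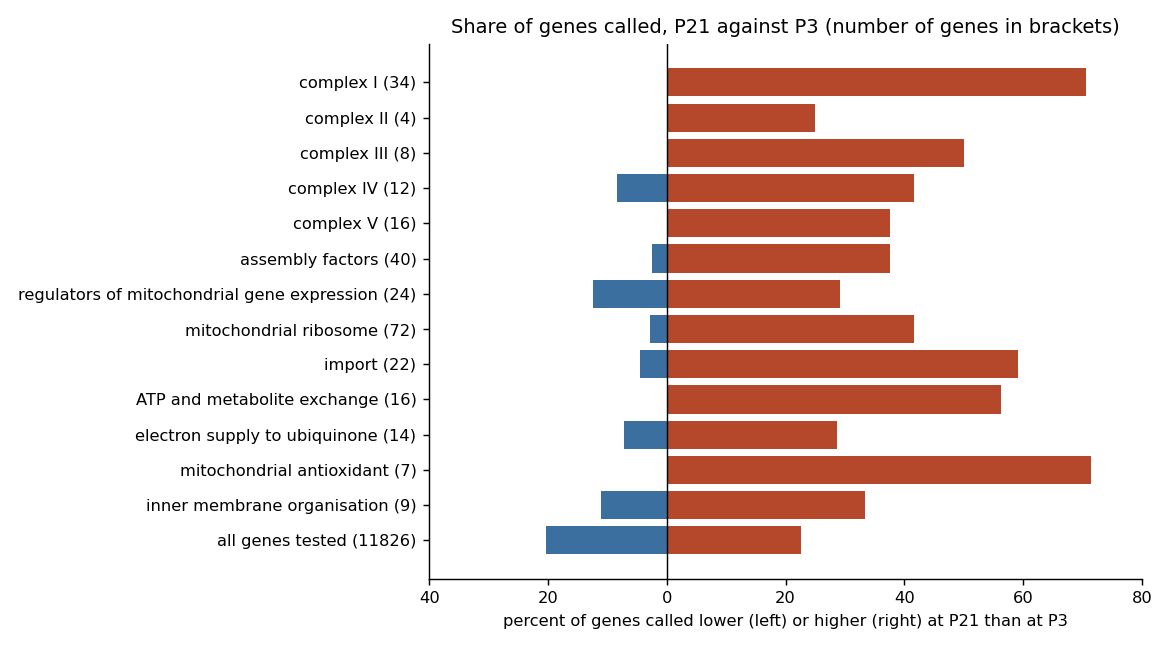
Percent of the genes of each complex and of each list that were called higher (right) or lower (left) at P21 than at P3 in the fit of 15 arrays, with the number of genes tested in brackets. Complex I stands at 70.6% higher, complex V at 37.5%, and all genes tested at 22.5% higher and 20.4% lower.

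P8 replicates 5 to 9 gave another profile of the same genes. The difference of group means from P8 replicates 1 to 4 ran from -5.27 to 3.24 over the 74 genes, with a median of -1.40, and was below 0 for 54. All 5 arrays lay below the other 15 for 32 members (43.2%) and above them for 8 (10.8%), where all genes gave 12.1% and 14.0%. Across the 74 genes the means of P8 replicates 1 to 4 correlated at 0.98 with those of P3 and at 0.69 with those of P8 replicates 5 to 9, as a description over genes.

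The Rieske protein gene Uqcrfs1 was at 5.55, 5.98, 4.57, 2.41 and 5.59 on these arrays, against 9.51 to 10.69 in P8 replicates 1 to 4. Ndufb1 and Ndufb3, 2 accessory subunits, lay at the other end, with means of 12.56 and 13.95 against 9.32 and 11.21. Both means exceed 12.36, the brightest value of any probe set on the other 15 arrays. The range of intensity therefore differs between these arrays and the others, which limits the reading of such differences of means. By complex the median difference was -1.50 in complex I, -1.72 in complex II, -0.81 in complex III, 0.20 in complex IV and -1.49 in complex V. Atp5f1b was at 9.06, 7.79, 9.64, 7.53 and 10.70, below its lowest value of 10.99 on any other array. The GAPDH 3′ minus 5′ difference of these arrays was 2.19 ± 0.33 (SD, n = 5). Nothing in the labels sets these animals apart from the other P8 animals. Their values entered no test reported above except where all 20 arrays are named. They did count in the choice of the brightest probe set per gene, which was made over all 20 arrays.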

How the data were processed

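Arrays of rat globular bushy cells (20 animals) were deposited as 1 table of linear intensity per probe set and array. On every array the mean without the lowest and highest 2% of probe sets was 100 to 3 digits, so the authors' values had been scaled per array. The submitters' processing notes name GCRMA without role or version, and GCRMA gives log2 values, and the sources used here do not give the tool behind the deposited intensity. Of 31099 probe sets 20832 name 1 gene by the platform annotation, 436 several and 9831 none, and 57 are controls. Symbols were updated through RefSeq GRCr8.

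Values were analysed as log2(intensity + 1), which understates changes of dim genes, with the brightest probe set per gene and a filter of log2 4 in at least 5 arrays. limma 3.58.1 in R 4.3.3 (lmFit, eBayes) was fitted to 15 arrays without P8 replicates 5 to 9, and adjusted p are Benjamini-Hochberg over 11826 genes. Every adjusted p is from limma. Scripts were tested on simulated data. The members, lists and tests were chosen with earlier results of these data known. The rule for naming takes 25 core subunits if measured, up to 4 calls per complex, comparison and direction, members whose probe sets disagree, and 2 calls per list, comparison and direction. Alternatives changed the arrays fitted, filter, pseudocount, normalization, variance model, probe set rule and replicate block. The labels call the samples biological replicates from separate animals, and the number of arrays limits the precision.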

Additional observations from a re-analysis of the deposited data

Results flagged for a closer look

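Single arrays were compared with the rest of their group for the named genes and the complex means, and 10 of 141 groups held an array whose gap to the nearest other exceeded Dixon's critical value (7.09%, where chance gives about 5%). Higher than the rest of their group were Atp5if1 on P21 replicate 3 at 9.74 (others 9.55 to 9.60), Atp5mc3 on P3 replicate 5 at 11.43 (11.23 to 11.30), Ndufa6 on P3 replicate 3 at 9.49 (8.34 to 8.72), Ndufa9 on P21 replicate 3 at 10.02 (9.69 to 9.76) and Sdha on P21 replicate 2 at 10.10 (9.89 to 9.92). Lower than the rest were Atp5me on P21 replicate 5 at 9.62 (10.11 to 10.30), Cox5b on P3 replicate 1 at 10.13 (10.86 to 11.22), Ndufa4l2 on P21 replicate 2 at 3.55 (4.42 to 4.77), Ndufs1 on P21 replicate 1 at 9.69 (10.06 to 10.21) and Uqcr10 on P8 replicate 2 at 10.64 (11.05 to 11.08). These arrays stayed in all values above.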

How the results depend on the processing

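The number of members called higher from P3 to P21, 40, ran from 31 to 46 when each array was left out and from 32 to 48 under other settings within the 15 arrays, with 9 over 20 arrays with P8 as 1 group and 25 with P8 replicates 5 to 9 as a group of their own. The 1 call lower became 0 over 20 arrays, with a filter at log2 6 and with the replicate block, and ran from 0 to 1 without single arrays. From P3 to P8 there were 10 calls higher (1098 of 11826 over all genes). They became 2 with P8 replicates 5 to 9 as their own group (482 of 12694) and 3 with the replicate block (661 of 11826). They ran from 6 to 13 without single arrays. The 0 calls lower (946 of 11826) became 4 over 20 arrays with P8 as 1 group (1493 of 12694). They stayed 0 without any single array. From P8 to P21 there were 11 calls higher (1140 of 11826 over all genes). They became 35 over 20 arrays with P8 as 1 group (1353 of 12694). With P8 replicates 5 to 9 apart 1 was left (559 of 12694). With only those ages (653 of 11826) or with array weights (828 of 11826) 4 were called. With array medians subtracted (869 of 11819) or with the replicate block (825 of 11826) 6 were called. The 11 calls ran from 5 to 13 without single arrays. The 1 call lower became 0 with P8 replicates 5 to 9 apart, only those ages, no filter, a filter at log2 6, quantile normalization, array weights, the mean of probe sets, every probe set alone or the replicate block, and ran from 0 to 1 without single arrays. The test of the later minus the earlier interval called 46 over 20 arrays with P8 as 1 group (over all genes 1870 higher and 2319 lower of 12694, against 267 and 360 of 11826 over 15 arrays), 1 with a pseudocount of 16, and 0 to 1 without single arrays. The complex means kept their direction with medians over genes and with array medians subtracted.

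Equal replicate numbers did not pair the samples: deviations of 13 same-numbered pairs correlated at -0.06 to 0.05. The replicate block gave 3, 6 and 32 calls higher for P8 minus P3, P21 minus P8 and P21 minus P3. Over all genes it gave 661, 825 and 2387 of 11826.

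Over 20 arrays with P8 as 1 group, the sign turned for the following differences that were called in that fit or over 15 arrays. For P8 minus P3: Atp5f1c -1.38, Atp5mg -1.50, Atp5po -1.31, Ndufa11 -0.16, Ndufs7 -0.19, Ndufs8 -0.23, Ndufv2 -1.25, Uqcrc2 -1.0006 and Uqcrfs1 -2.72. For the later minus the earlier interval: Atp5f1b 2.46, Atp5f1c 2.90, Atp5mg 3.76, Atp5po 2.65, Cox7b2 -2.28, Cyc1 2.27, Ndufa4l2 -2.43, Ndufa9 2.82, Ndufv2 3.38, Sdhc 1.64, Uqcrc1 1.44 and Uqcrc2 1.81. These use P8 replicates 5 to 9, whose values are given above. With the mean of probe sets Ndufa7 gave 0.76 for P8 minus P3. Of the other alternatives for single genes 4222 kept sign and side of the threshold, 168 lost a call, 68 gained one and 170 without a call on either side changed sign. Dim genes near log2 4 are limited by signal over background.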
